A study of Mus musculus with 20 samples.

Results

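The 9 genes described here are the 4 Fos genes (Fos, Fosb, Fosl1, Fosl2), the 3 Jun genes (Jun, Junb, Jund), Atf3 and Maff. They were chosen by name, as the subunit genes of the transcription factor AP-1 together with 2 genes of related basic leucine zipper proteins, out of 45706 genes in the count table, and all 9 were among the 14023 genes that passed the filter on low counts. They were measured by RNA-seq in 20 libraries of primary mouse embryonic fibroblasts (MEFs), that is, fibroblasts taken from C57BL/6 embryos and grown in culture. Every cell lacked the NF-kB subunit c-Rel: 10 libraries were of genotype crel-/- and 10 of genotype crel-/-RelA-TA-KI, in which RelA, another NF-kB subunit, carries a knocked-in allele that the labels name TA without saying what it changes. Cells grown in 10% bovine calf serum were held overnight in 0.5% serum. They were then left unstimulated (0 h) or given interleukin-1 beta (IL-1b, 10 ng/ml), bacterial lipopolysaccharide (LPS, 100 ng/ml) or tumour necrosis factor (TNF, 10 ng/ml) for 0.5, 1 or 3 h. Each of the 20 combinations of genotype, agent and time was 1 library, so the matched libraries of the 2 genotypes stood in as replicates for agent and time, and matched conditions did so for genotype. The labels do not say that libraries came from separate embryos. Every p-value therefore reflects spread between single libraries, which may be technical. That spread also holds any genotype difference that varies between conditions beyond what a model fits. No series of mock-stimulated cells was analysed, so the agent and the handling of the cells cannot be told apart in any comparison with 0 h.

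AP-1 is a dimer. A Jun protein pairs with a Fos protein or with another Jun protein through the leucine zipper, and the basic regions of the pair hold DNA at the TPA response element or, with ATF partners, at the cAMP response element (CRE). Fos and Jun are textbook immediate early genes: in fibroblasts, serum, growth factors and inflammatory cytokines act through MAP kinases on factors already bound at these genes, transcription starts within minutes without new protein synthesis, and their unstable mRNAs are then removed. Atf3 encodes a stress-induced ATF protein that pairs with Jun proteins and often represses, and Maff encodes a small Maf protein that has no transactivation domain of its own.

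On build mm10, as the deposited table places them, the Fos genes lie on 4 chromosomes, Fos at chr12:85473890-85477273, Fosb at chr7:19302721-19310045, Fosl1 at chr19:5447703-5455945 and Fosl2 at chr5:32135801-32157842. Jun lies at chr4:95049034-95052222. Junb and Jund share a chromosome, at chr8:84976909-84978748 and chr8:70697739-70700616. Atf3 lies at chr1:191170296-191218039 and Maff at chr15:79347541-79359072. Fosb, Jun, Junb and Atf3 are on the minus strand. The counts are of reads in exons of these genes, so they do not separate splice forms.

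Promoter sequence is shown for the 4 members whose windows held a CRE core or the related 8-base element, so that the position of these AP-1 and ATF elements can be compared. Each stretch is 300 bases, 250 before the annotated start and 50 from the start on, from RefSeq on build GRCm38.p6, printed 5′ to 3′ on the strand of the gene. The windows lie at chr12:85473640-85473939 on the plus strand (Fos), chr4:95052173-95052472 on the minus strand (Jun), chr1:191183284-191183583 on the minus strand (Atf3) and chr15:79347270-79347569 on the plus strand (Maff, the second of its 3 annotated starts). Capitals mark matches to the motifs described in the next paragraph, GC boxes excepted.
Fos: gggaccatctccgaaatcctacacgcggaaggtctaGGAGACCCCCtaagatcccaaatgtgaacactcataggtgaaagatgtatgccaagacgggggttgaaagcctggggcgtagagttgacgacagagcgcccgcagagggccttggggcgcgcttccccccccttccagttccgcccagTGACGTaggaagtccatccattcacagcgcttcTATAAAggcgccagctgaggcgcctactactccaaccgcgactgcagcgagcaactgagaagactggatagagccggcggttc
Jun: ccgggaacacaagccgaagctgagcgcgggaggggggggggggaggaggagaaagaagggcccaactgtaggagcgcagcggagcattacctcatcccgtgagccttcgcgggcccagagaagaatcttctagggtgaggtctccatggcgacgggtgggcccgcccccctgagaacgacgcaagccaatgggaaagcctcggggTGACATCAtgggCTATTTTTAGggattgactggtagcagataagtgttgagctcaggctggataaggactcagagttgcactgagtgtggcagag
Atf3: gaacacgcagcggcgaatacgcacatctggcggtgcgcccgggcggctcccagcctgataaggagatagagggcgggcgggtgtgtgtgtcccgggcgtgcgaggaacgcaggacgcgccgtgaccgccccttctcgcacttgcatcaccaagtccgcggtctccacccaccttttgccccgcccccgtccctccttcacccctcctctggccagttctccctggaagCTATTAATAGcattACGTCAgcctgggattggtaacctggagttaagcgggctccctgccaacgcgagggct
Maff: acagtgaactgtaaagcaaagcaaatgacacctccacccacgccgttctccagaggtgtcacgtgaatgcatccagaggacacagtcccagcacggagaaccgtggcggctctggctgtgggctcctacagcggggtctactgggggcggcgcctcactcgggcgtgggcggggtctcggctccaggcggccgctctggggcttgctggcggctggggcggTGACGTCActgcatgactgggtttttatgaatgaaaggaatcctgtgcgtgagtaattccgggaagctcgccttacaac

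Motifs were searched on both strands in the windows of 8 members (10 starts, 3 of them Maff). Fosl1 had no window. Positions count from the first transcribed base as 0. The CRE core TGACGT was found at -66 to -61 in Fos and, on the opposite strand, at -8 to -3 in Atf3, and the full palindrome TGACGTCA, which holds the core on both strands, at -29 to -22 in Maff. Of all 32851 promoters in the table, 7.51% held that core. The 8-base element TGACNTCA, which includes the Maff palindrome, was found at -45 to -38 in Jun, where it reads TGACATCA, and with the same letters at -45 to -38 in the third Maff window (8.83% of all promoters). The 7-base TPA response element TGANTCA was in none of the 10 windows (7.81% of all). A MEF2 site (3.19% of all) lay at -33 to -24 in Jun and at -22 to -13 in Atf3. A TATA box, TATAAA (13.6% of all), lay at -33 to -28 in Fos and at 0 to 5 in Junb, at the annotated start itself. An NF-kB site (kB site, 4.51% of all) lay in the windows of Fos, Fosb, Fosl2 and the third Maff start, and in Fosl2 it matched on both strands at overlapping positions. A CArG box, the element bound by serum response factor (SRF), was in none of the 10 windows (1.63% of all). The windows end 250 bases before the start, so no element farther upstream could be found. The GC box GGGCGG (35.7% of all) was in the windows of Fos, Fosb, Fosl2, Jun and Atf3 and in 2 of the 3 of Maff. Jund and the first Maff start held none of these motifs. A match is a description of the letters, and no binding was measured.

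**Figure D1:**
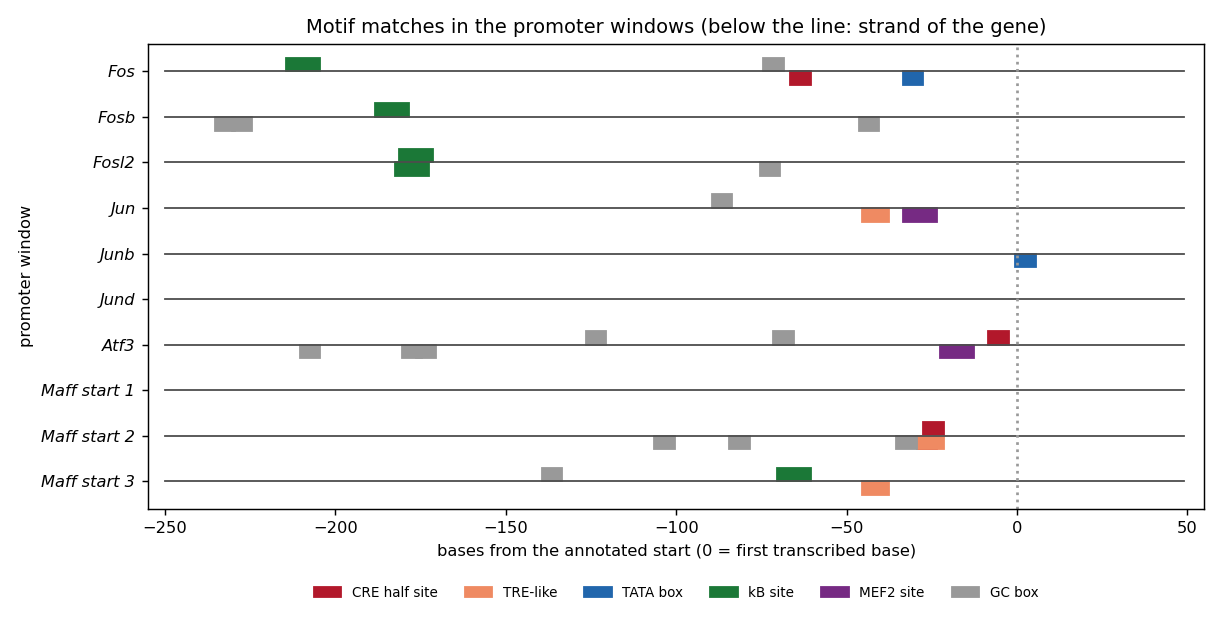
Each line is the promoter window of one start, from 250 bases before the annotated start to 49 after its first base; the horizontal axis gives bases from that base. Coloured blocks are motif matches, below the line on the strand of the gene and above it on the other strand. Matches to the CRE core and the 8-base element sit within 66 bases of the start in Fos, Jun, Atf3 and 2 Maff windows.

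Total counts were 9248151 to 12574135 per library, and 3 counts corresponded to 0.222 to 0.435 CPM (counts scaled to a common library size, with a correction for composition). All 9 genes had counts in every library, the lowest being 14 for Fosl1 in unstimulated knock-in cells. No pair of libraries held identical counts. The 2 LPS 3 h libraries had composition factors of 0.722 and 0.732 against 0.979 to 1.12 in the other libraries. The fibroblast list (14 of 14 genes tested, Col1a1 and Vim among them) summed to 57522 CPM or more in every library. Macrophage markers were present too, and their sums differed, with some overlap, between sets of libraries. The 15 summed to 4380 to 5843 CPM in the 8 libraries of 0 h and TNF. In the 12 libraries of IL-1b and LPS they summed to 2851 to 4553 CPM. The neural and Schwann cell list (12 of 13 tested) summed to 55.6 to 118 CPM in the first set and 18.9 to 44.2 CPM in the second, and the muscle list to 23.7 to 31.0 and 9.83 to 19.3 CPM, with Myf5 and Ckm at 0 in all 20. The epithelial list (4 of 10 tested) summed to 9.52 to 20.6 and 6.62 to 13.0 CPM, and the endothelial list (5 of 10 tested) to 48.5 to 165 and 36.2 to 274 CPM. The part of these differences between the sets in the comparisons of IL-1b or LPS with 0 h or TNF was not tested. Comparisons of TNF with 0 h and of LPS with IL-1b stay within a set, but markers differed in some of them too, as given beside those results. In bulk samples, fewer cells of a type and less RNA per cell cannot be told apart.

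In unstimulated cells the pool of transcripts was led by Jun and Jund. Per length, as RPKM (CPM divided by gene length in kilobases), Jun stood at 33.0 and 37.7 in the crel-/- and knock-in libraries and Jund, the subunit usually expressed in resting cells, at 32.3 and 46.3. Junb, Atf3 and Fosl2 followed at 12.1 and 17.0, 11.7 and 11.9, and 10.5 and 10.8 RPKM, and Fos at 7.21 and 8.45 RPKM. Maff, at 1.29 and 2.85 RPKM, Fosb, at 0.839 and 0.657, and Fosl1, at 0.898 and 0.696, were lowest. The values of Jun and Jund overlapped, as did those of Fosb and Fosl1, and with 2 libraries the rest of the order is a description.

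All 9 genes were higher in value at 0.5 h than at 0 h, in 6 of 6 stimulated libraries against 0 h of the same genotype. Averaged over the 3 agents, the test called 8 of the 9 higher at 0.5 h, where 2.9% of all genes tested were called higher. It called 8 higher at 1 h (all but Fos) and 8 higher at 3 h (all but Fosb), where 7.12% and 25.5% of all genes were. The median log2 fold change of the 9 was 2.77, 2.42 and 1.51 at the 3 times, against 0.00 in each case for all genes tested. The exception at 0.5 h was Fosl2, higher in 6 of 6 libraries by a log2 fold change of 1.17 ± 0.30 (SE, edgeR adjusted p = 0.0536). Here and below, fold changes compare 6 libraries with the 2 at 0 h unless 1 agent is named (2 against 2), and each error is a standard error. These counts rest on the 0 h libraries: without the crel-/- library at 0 h the calls fell to 3, 4 and 5. With the agents taken as replicates of a time they fell to 1, 1 and 5. In the 0 h and TNF libraries alone 2, 1 and 7 members were called, with Fos and Jund the 2 at 0.5 h. Without composition scaling 7 members were called higher at 3 h, Fosl2 being lost, while the median of all genes moved to -0.31 and the called genes that were higher went from 50.9% to 17.7%.

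**Figure D2:**
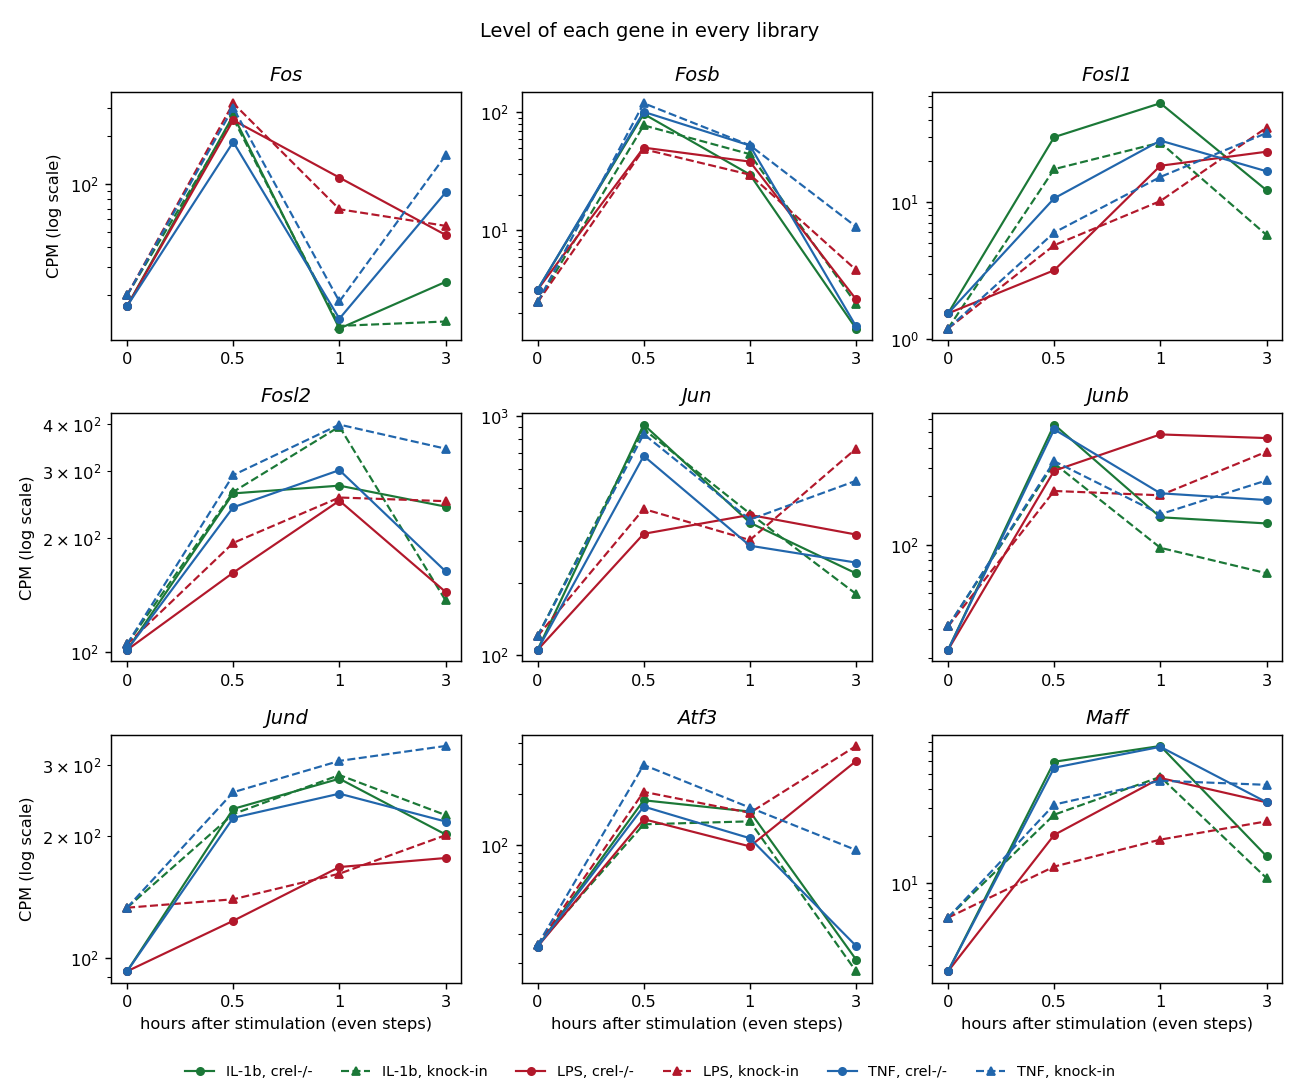
Each panel is one gene; the horizontal axis gives hours after stimulation in even steps and the vertical axis CPM on a log scale. Lines join single libraries, coloured by agent, solid with circles for crel-/- and dashed with triangles for knock-in, and all start from the same 2 libraries at 0 h. Fos is high at 0.5 h in all 6 libraries, and at 1 h the 2 LPS libraries, at 110 and 69.3 CPM, are the only ones above 18.1 CPM.

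Fos, the founding Fos gene, made a short pulse. It measured 16.9 CPM in crel-/- and 19.9 CPM in knock-in cells at 0 h. At 0.5 h it measured 271 and 259 CPM under IL-1b, 253 and 323 CPM under LPS and 184 and 302 CPM under TNF, in the same order of genotypes. All 6 libraries lay above both at 0 h, with a log2 fold change of 3.84 ± 0.35 (edgeR adjusted p = 0.000741). At 1 h it measured 12.2 and 12.7 CPM under IL-1b and 14.1 and 18.1 CPM under TNF, below the 0 h values of the same genotype, whereas under LPS it still measured 110 and 69.3 CPM. Under TNF a second high level followed: at 3 h Fos measured 88.4 and 151 CPM, against 47.7 and 54.4 CPM under LPS and 24.1 and 13.6 CPM under IL-1b. Against 0 h, Fos at 3 h was higher under TNF by 2.69 ± 0.37 (adjusted p = 0.000548) and under LPS by 1.47 ± 0.37 (adjusted p = 0.00627), and under IL-1b the difference was 0.03 ± 0.39 (adjusted p = 0.957).

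Fosb, which encodes a Fos protein and a truncated splice form of it, had the largest fold change of the 9 at 0.5 h. It measured 3.15 CPM in crel-/- and 2.46 CPM in knock-in cells at 0 h. At 0.5 h it measured 96.9 and 77.5 CPM under IL-1b, 50.2 and 48.7 CPM under LPS and 101 and 119 CPM under TNF, a log2 fold change of 4.79 ± 0.51 (adjusted p = 0.00131). It was still at 29.7 to 52.6 CPM in all 6 libraries at 1 h (3.84 ± 0.50, adjusted p = 0.00113). At 3 h 5 of the 6 libraries measured 1.48 to 4.63 CPM and overlapped the 0 h values, and the knock-in library under TNF measured 10.8 CPM.

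Fosl1 and Fosl2, which encode Fra-1 and Fra-2, Fos proteins without the activation domain of Fos, had their highest levels at 1 or 3 h. Fosl1 went from 1.53 and 1.19 CPM at 0 h to between 3.17 (crel-/-, LPS) and 29.9 CPM (crel-/-, IL-1b) at 0.5 h. It stood at 10.2 to 52.9 CPM at 1 h and 5.75 to 35.0 CPM at 3 h, so every stimulated library lay above both at 0 h, and the difference at 3 h was 3.78 ± 0.61 (adjusted p = 0.000574). Its highest value came at 1 h in crel-/- cells (52.9 CPM, IL-1b) and at 3 h in knock-in cells (35.0 CPM, LPS). The call for Fosl1 at 0.5 h was lost when any of 7 libraries was left out, the 2 at 0 h and 5 of the 6 at 0.5 h. Fosl2 moved within a narrower range, from 101 and 105 CPM at 0 h to 162 to 293 CPM at 0.5 h, 251 to 398 CPM at 1 h and 137 to 344 CPM at 3 h. All stimulated Fosl2 values exceeded both at 0 h, and at 1 h the log2 fold change was 1.57 ± 0.31 (adjusted p = 0.00872).

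Among the Jun genes, Jun measured 105 and 120 CPM at 0 h. At 0.5 h it measured 918 and 878 CPM under IL-1b, 679 and 838 CPM under TNF, and 321 and 408 CPM under LPS, so the LPS libraries were the lowest of the 6. The log2 fold change at 0.5 h was 2.48 ± 0.33 (adjusted p = 0.00346). At 1 h Jun lay between 287 and 390 CPM in all 6 libraries. At 3 h the knock-in libraries under LPS and TNF, at 729 and 535 CPM, stood above the other 4, which measured 180 to 319 CPM.

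Junb, whose protein is a weaker activator than Jun and often opposes it, measured 22.4 and 31.3 CPM at 0 h. At 0.5 h it measured 555 and 319 CPM under IL-1b, 288 and 216 CPM under LPS and 519 and 329 CPM under TNF (3.68 ± 0.38, adjusted p = 0.00131). Under LPS it measured 483 and 203 CPM at 1 h and 458 and 377 CPM at 3 h, above its 0.5 h value in both genotypes at 3 h, while under IL-1b it measured 136 and 66.7 CPM at 3 h. Every stimulated value remained above both at 0 h. Jund, with Fosl2, had the narrowest range of the 9: from 92.9 and 133 CPM at 0 h it reached at most 334 CPM (knock-in, TNF 3 h). Its log2 fold changes were 0.79 ± 0.12 at 0.5 h (adjusted p = 0.00303), 1.07 ± 0.12 at 1 h (adjusted p = 0.000253) and 0.99 ± 0.12 at 3 h (adjusted p = 4.6e-05).

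Atf3 measured 25.1 and 25.6 CPM at 0 h. At 0.5 h it measured 184 and 133 CPM under IL-1b, 142 and 207 CPM under LPS and 169 and 298 CPM under TNF (2.86 ± 0.44, adjusted p = 0.0061), and at 1 h 98.3 to 167 CPM. At 3 h the agents parted: it measured 314 and 386 CPM under LPS, the highest values of the series for Atf3, 25.4 and 93.6 CPM under TNF, and 21.1 and 18.0 CPM under IL-1b, below both at 0 h. The mean response of Atf3 at 3 h, 1.51 ± 0.42 (adjusted p = 0.0132), was lost without the 2 LPS 3 h libraries. Maff measured 2.74 and 6.03 CPM at 0 h, 12.8 to 59.5 CPM at 0.5 h, 19.0 to 74.9 CPM at 1 h and 10.8 to 42.4 CPM at 3 h. All stimulated Maff values exceeded both at 0 h, and its log2 fold change was largest at 1 h, 3.42 ± 0.43 (adjusted p = 0.000794).

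Most members were lower at 3 h than at 0.5 h, although 8 of the 9 were still called above 0 h. From 0.5 to 3 h, 5 of the 9 fell, where 28.7% of all genes tested were called lower, and 2 rose, where 29.5% were called higher. The changes were -4.49 ± 0.32 for Fosb, -2.44 ± 0.20 for Fos, -1.36 ± 0.26 for Atf3, -0.89 ± 0.20 for Jun and -0.75 ± 0.21 for Junb (edgeR adjusted p between 1.3e-06 and 0.011). Fosb and Fos were lower in 6 of 6 matched libraries, Jun in 5 of 6, and Atf3 and Junb in 4 of 6. The 2 in which Atf3 and Junb were higher were those under LPS, where Atf3 went from 142 to 314 CPM in crel-/- and from 207 to 386 CPM in knock-in cells. Fosl1 rose by 1.04 ± 0.31 (adjusted p = 0.0136) and Jund by 0.20 ± 0.08 (adjusted p = 0.0476). Fosl1 was higher in 4 of 6 matched libraries and lower in the 2 under IL-1b. There it went from 29.9 to 12.2 CPM in crel-/- and from 17.4 to 5.75 CPM in knock-in cells. The Fosl1 call was lost without the crel-/- IL-1b 3 h library, without the 2 LPS 3 h libraries, and in the 0 h and TNF libraries alone. Jund was higher in 3 of 6 matched libraries and lower in 3, and its call was lost without any of 14 of the 20 libraries and with no filter on low counts. The Jund value did not keep its sign under every scaling: without composition scaling, which gave all genes a median of -0.24, it was -0.041. Fosl2 and Maff did not pass the test (-0.14 ± 0.20 and -0.33 ± 0.23). With the agents taken as replicates of a time, 3 members were called, Fos, Fosb and Jun, all lower.

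The make-up of the pool changed with the pulse. The 9 genes together measured 110 and 136 RPKM at 0 h, 515 to 970 RPKM at 0.5 h and 209 to 765 RPKM at 3 h. Among the Fos genes, Fosl2 made up 52.5% to 53.9% of the RPKM at 0 h and 11.6% to 18.3% at 0.5 h, and Fos 37.1% to 40.9% and then 57.4% to 79.3%. At 1 h the share of Fos was 7.18% to 10.7% under IL-1b and TNF and 42.3% and 49.9% under LPS. Among the Jun genes, Jund went from 41.7% to 45.9% at 0 h to 12.1% to 16.8% at 0.5 h, while Junb went from 15.7% to 16.8% to between 32.9% and 52.1%. The ratio of Jun to Fos genes was 3.99 and 4.89 at 0 h, 2.15 and 1.69 under LPS at 0.5 h, and 8.29 and 7.12 under LPS at 3 h. At 3 h it was 4.98 and 7.16 under IL-1b and 3.94 and 3.46 under TNF, so the knock-in IL-1b library stood level with the knock-in LPS library. These are shares of mRNA, and dimers were not measured.

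**Figure D3:**
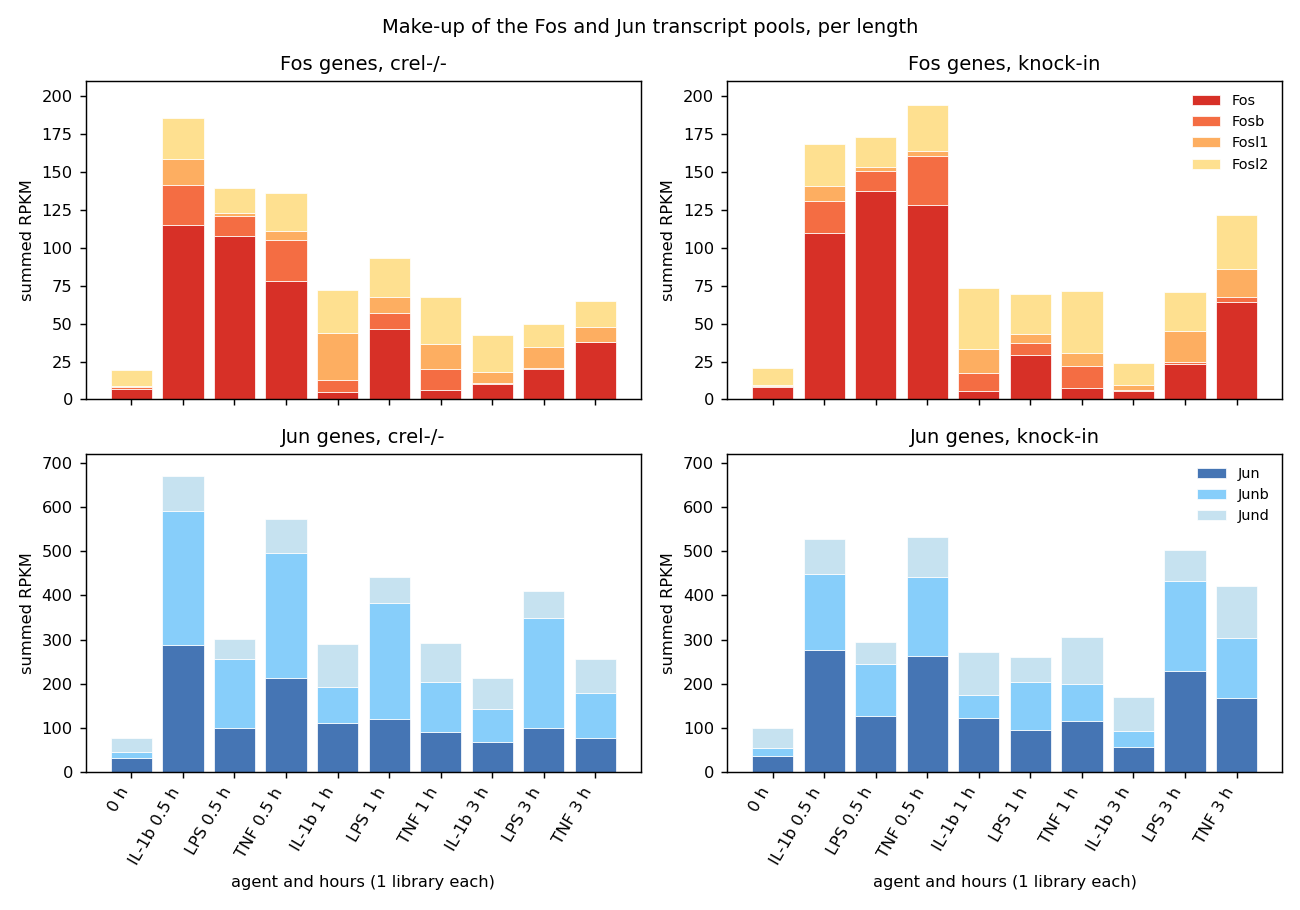
Stacked bars give the RPKM of the 4 Fos genes (top) and the 3 Jun genes (bottom) in each library, crel-/- on the left and knock-in on the right; 1 bar is 1 library. Fos leads the Fos genes in all 6 libraries at 0.5 h, and in the 1 h bars it remains large under LPS, at 42.3% and 49.9%.

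Taken agent by agent, against the same 2 libraries at 0 h, IL-1b raised 9, 8 and 4 of the 9 at 0.5, 1 and 3 h, LPS 5, 9 and 8, and TNF 7, 8 and 7. Called higher among all genes were 5.75%, 8.38% and 16.9% under IL-1b, 3.56%, 7.58% and 29.2% under LPS, and 0.314%, 2.25% and 18.7% under TNF. No member was called lower in any of the 9 comparisons. Of all genes, 1558, 844 and 55 were called at 0.5 h under IL-1b, LPS and TNF, with 807, 499 and 44 higher and the rest lower. At 1 h 2174, 1916 and 565 were called, 1175, 1063 and 316 of them higher. The numbers at 3 h were 4307, 8061 and 4861, with 2366, 4099 and 2618 higher. At 0.5 h the 4 not called under LPS were Fosl1 (1.56 ± 0.82), Fosl2 (0.78 ± 0.35), Jund (0.23 ± 0.14) and Maff (1.87 ± 0.50). At 3 h the 5 not called under IL-1b were Fos, Fosb, Fosl2, Jun and Atf3, with log2 fold changes of 0.03, -0.52, 0.91, 0.85 and -0.38. These counts depend on the tool. At 0.5 h DESeq2 called 9, 7 and 9 under IL-1b, LPS and TNF, and limma-voom 9, 6 and 7. Under IL-1b at 3 h DESeq2 called 6, limma-voom 3, and edgeR without the filter on low counts 2. Of 81 such tests 65 were called, and without the crel-/- library at 0 h 35 were. Calls lost without any of 10 to 15 libraries were Fosl2 under LPS and Maff under IL-1b at 3 h, Jun under TNF at 1 h and Atf3 under TNF at 0.5 h. The 9 comparisons share the libraries at 0 h and are not independent of one another. Of the 15 macrophage markers, 9 were called lower under IL-1b at 0.5 h, 6 under LPS and 0 under TNF, and of the 12 neural and Schwann cell markers tested 7, 6 and 0. Under TNF at 3 h, 5 macrophage markers and 2 neural and Schwann cell markers were called higher. Their part in the responses was not tested.

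**Figure D4:**
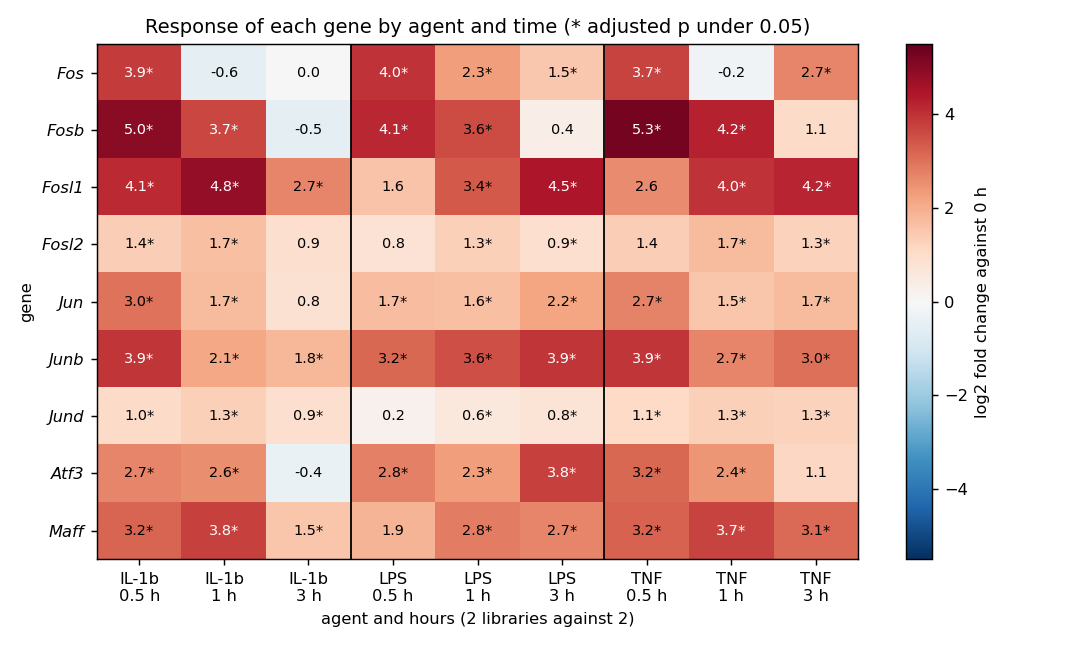
Rows are genes and columns agents and hours; colour and number give the log2 fold change against 0 h, 2 libraries against 2, and a star marks an edgeR adjusted p under 0.05. Starred cells number 9, 8 and 4 under IL-1b, 5, 9 and 8 under LPS and 7, 8 and 7 under TNF at 0.5, 1 and 3 h.

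Compared directly, the agents differed in few of these genes at 0.5 h and in more at 3 h. Among all genes, too, each pair of agents differed in a larger share at 3 h than at 0.5 h. At 0.5 h none of the 9 differed between IL-1b and TNF by edgeR (7.4% of all genes did), although 1 member had an unadjusted p under 0.05 and DESeq2 called 1, Fosl1, higher under IL-1b (1.49, adjusted p = 0.0209). LPS and IL-1b at 0.5 h also gave no member call by edgeR (0.0499% of all genes), with 4 members under an unadjusted p of 0.05, and DESeq2 called 3, Fosl1, Jun and Jund, all lower under LPS. Jund was lower under LPS than under TNF at 0.5 h (-0.86 ± 0.14 on the log2 scale, adjusted p = 0.00315), measuring 124 and 140 CPM under LPS and 222 and 257 CPM under TNF, where 6.15% of all genes differed. In that comparison 4 members had an unadjusted p under 0.05. DESeq2 called 3, Jun, Jund and Maff, and limma-voom 3, Fosb, Jund and Maff, all lower under LPS. In the log2 fold change of LPS against TNF at 0.5 h, 8 of the 9 members were negative in value, Fos being the exception at 0.25 ± 0.32. In that comparison 7 of the 15 macrophage markers and 5 of the 12 neural and Schwann cell markers were lower under LPS, and 0 higher. Their part was not tested.

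At 1 h the agents were compared after the values were seen. IL-1b and TNF did not differ for any member by edgeR, DESeq2 or limma-voom (6.87% of all genes by edgeR), and no member had an unadjusted p under 0.05. Fos was higher under LPS than under TNF by 2.49 ± 0.37 (edgeR adjusted p = 0.00216) and than under IL-1b by 2.86 ± 0.38 (adjusted p = 0.00886). Both LPS values of Fos, 110 and 69.3 CPM, lay above the 4 others, which reached at most 18.1 CPM. Jund was lower under LPS in each comparison (-0.76 ± 0.14, adjusted p = 0.00375 against TNF and 0.021 against IL-1b). Junb was called higher under LPS than under IL-1b by DESeq2 (1.44, adjusted p = 0.00161) and by limma-voom (1.40, adjusted p = 0.0449) but not by edgeR. Of all genes, 13.4% differed between LPS and TNF and 1.12% between LPS and IL-1b by edgeR. The calls against IL-1b were lost for Fos without any of 3 of the 4 libraries compared and for Jund without any of the 4. Between LPS and TNF at 1 h, 10 of the 15 macrophage markers and 8 of the 12 neural and Schwann cell markers were lower under LPS, and 0 higher. Between LPS and IL-1b at 1 h, 6 of the 15 macrophage markers were lower under LPS and 1 higher. The part of these markers was not tested.

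At 3 h, LPS against IL-1b gave 6 members higher under LPS: Atf3 by 4.15 ± 0.51 (adjusted p = 9.15e-05), Junb by 2.10 ± 0.38 (adjusted p = 0.00113), Fosl1 by 1.80 ± 0.51, Fos by 1.44 ± 0.37, Jun by 1.32 ± 0.36 and Maff by 1.17 ± 0.43 (adjusted p between 0.00932 and 0.044). By edgeR 47.2% of all genes differed in that comparison. The Maff call was lost without any of 12 libraries. Without the knock-in IL-1b 3 h library the Fos, Fosl1 and Jun calls were lost too, and without the knock-in LPS 3 h library those of Fosl1 and Jun. Against TNF, LPS left Atf3 higher by 2.64 ± 0.47 (adjusted p = 0.000972), Fos lower (-1.22 ± 0.34, adjusted p = 0.014) and Jund lower (-0.53 ± 0.14, adjusted p = 0.00662), where 48.2% of all genes differed. The Fos and Jund calls were lost without the knock-in LPS or the knock-in TNF library at 3 h, and the Fos call also without the crel-/- LPS library. DESeq2 and limma-voom also called Junb higher under LPS than under TNF (0.89 and 0.95, adjusted p = 0.0164 by each). IL-1b against TNF at 3 h gave Fos lower (-2.66 ± 0.37, adjusted p = 0.00123) and Maff lower (-1.61 ± 0.41, adjusted p = 0.0248), where 15.8% of all genes differed, and the Maff call was lost without either IL-1b library or the knock-in TNF library. In that comparison 7 of the 9 members had an unadjusted p under 0.05. DESeq2 called 6, adding Fosl1, Jun, Junb and Atf3, and limma-voom 3, adding Junb, all lower under IL-1b. Of the 15 macrophage markers 11 were lower under IL-1b. Between LPS and TNF at 3 h, 9 of the 15 macrophage markers were lower under LPS and 1 higher. Of the 12 neural and Schwann cell markers 7 were lower there and 0 higher. Between LPS and IL-1b at 3 h, 8 of the 14 fibroblast markers were higher and 1 lower, as were 5 and 1 of the 15 macrophage markers. Their part was not tested. Without composition scaling the median of all genes in that comparison was -0.44 and the called genes that were higher went from 50.4% to 16.2%, and of the 6 members Maff was lost.

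Over the 10 matched pairs of genotypes, 1 of the 9 members was called by edgeR and 3 each by DESeq2 and limma-voom, where edgeR called 15.8% of all genes. The 1 was Jund, higher in knock-in cells by 0.21 ± 0.06 (8 of 10 pairs, adjusted p = 0.0384). That call was lost without any of 14 of the 20 libraries. Maff (-0.56 ± 0.18, lower in 8 of 10 pairs, adjusted p = 0.0623) and Junb (-0.48 ± 0.17, lower in 8 of 10 pairs, adjusted p = 0.0833) fell short by edgeR and were called lower by DESeq2 and by limma-voom. Fosl2 was higher in 9 of 10 pairs in value, by 0.26 ± 0.15 (adjusted p = 0.301). Cell type markers differed too: between the genotypes 5 of 14 fibroblast markers were higher in knock-in cells and 1 lower, 3 of 15 macrophage markers were lower, and 3 of 12 neural and Schwann cell markers were lower and 1 higher. Their part in the differences of these genes was not tested.

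By time, Maff was lower in knock-in cells at 0.5 h (-0.88 ± 0.18, adjusted p = 0.0354) and at 1 h (-0.86 ± 0.17, adjusted p = 0.0253), in all 3 pairs each time, while 2.57% and 3.39% of all genes differed. At 0.5 h it measured 59.5, 20.3 and 54.5 CPM under IL-1b, LPS and TNF in crel-/- cells and 27.3, 12.8 and 31.7 CPM in knock-in cells. At 1 h it measured 74.9, 46.8 and 74.0 CPM and 47.6, 19.0 and 45.0 CPM. At 0 h the single pair went the other way, 2.74 CPM in crel-/- and 6.03 CPM in knock-in cells. The change of the Maff difference from 0 h was -2.01 ± 0.55 at 0.5 h and -1.99 ± 0.55 at 1 h, and edgeR called neither, with DESeq2 calling the second (-2.02, adjusted p = 0.024). The Maff call at 0.5 h was lost without any of 9 libraries, the 6 at 0.5 h among them, and that at 1 h without any of the 6 at 1 h.

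In value, Junb was lower in knock-in cells in all 6 pairs at 0.5 and 1 h, by -0.42 to -1.25 on the log2 scale, and higher at 0 h by 0.48, and edgeR called it at neither time (-0.62 ± 0.27 and -0.77 ± 0.27, adjusted p = 0.403 and 0.241), with DESeq2 calling it at 1 h. At 3 h Jund was higher in knock-in cells in 3 of 3 pairs (0.32 ± 0.09, adjusted p = 0.039), where 16.6% of all genes differed, and the call was lost without any of 8 libraries and under DESeq2, which called Fosb (1.53) and Jun (0.69) higher instead. Without either IL-1b 3 h library, Fosl1, Fosl2 and Jun were called higher in knock-in cells at 3 h beside Jund, by 0.76 to 0.77, 0.93 to 0.94 and 1.16. At 1 h Fosl1 went the other way, lower in knock-in cells under IL-1b (-0.95), LPS (-0.85) and TNF (-0.88). At 0.5 h it was lower under IL-1b (-0.77) and TNF (-0.81) and higher under LPS (0.58). Over all 20 libraries edgeR called Fosl1 at neither time, and without either IL-1b 3 h library it called Fosl1 lower at 1 h (-0.91).

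The pairs at 3 h did not move alike. Under TNF all 9 genes were higher in the knock-in library, 4 of them by at least 1 on the log2 scale: Fosb by 2.66, Atf3 by 1.88, Jun by 1.13 and Fosl2 by 1.07. In that pair 2.87% of all genes were higher by at least 1. Under IL-1b 7 of the 9 were lower in the knock-in library, with Fosl1 at -1.06 and Junb at -1.02, and 4.93% of all genes were lower by at least 1. Under LPS 7 of 9 were higher, Jun by 1.19, and 3.44% of all genes were higher by at least 1. Of all genes, 50.5%, 49.8% and 51.6% were higher in value in the knock-in library under TNF, IL-1b and LPS. Each of these is 1 library against 1, with no replicate check.

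Tests of whether the genotype difference itself changed gave no member call by edgeR. From 0 h to 0.5, 1 and 3 h and from 0.5 to 3 h the calls among all genes were 0.00713%, 0.0285%, 0.414% and 3.44%. Members with an unadjusted p under 0.05 numbered 1, 2, 0 and 2, and DESeq2 called 2 in all, Maff in the second and Fosb in the last (1.58, adjusted p = 0.0179), and limma-voom none. Without either IL-1b 3 h library, edgeR called the changes of Fosl1 (1.33 to 1.34) and Fosl2 (0.75 to 0.76) from 0.5 to 3 h. Between agents, 0.349% of all genes differed in the genotype difference for IL-1b minus TNF, 0.0214% for LPS minus TNF and 0% for LPS minus IL-1b. Among members 3, 1 and 1 had an unadjusted p under 0.05, and DESeq2 called Atf3 for IL-1b minus TNF (-1.38, adjusted p = 0.00149), where edgeR gave -1.36 ± 0.31 (adjusted p = 0.15) and called it only without either TNF 3 h library (-1.01). The comparisons with 0 h rest on 1 pair at 0 h.

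**Figure D5:**
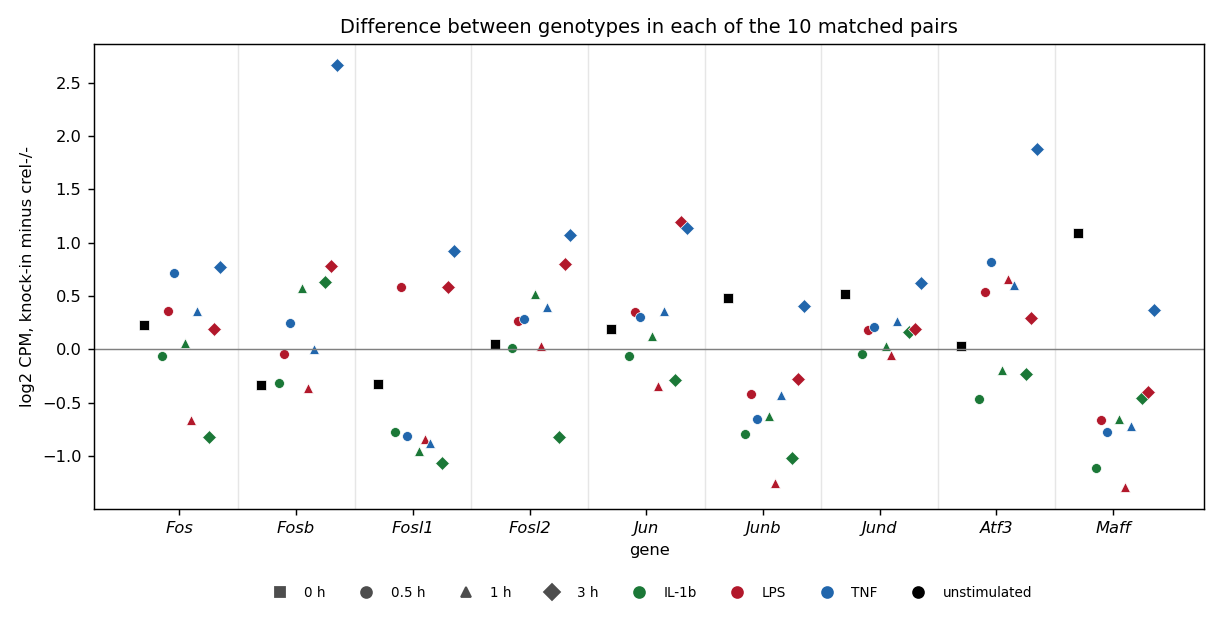
For each gene, points give log2 CPM in the knock-in library minus that in the matched crel-/- library, 1 point per pair, with shape for hours and colour for agent. Junb and Maff lie below 0 in all 6 pairs at 0.5 and 1 h, and the TNF 3 h pair lies above 0 for all 9 genes.

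Of 20 other AP-1 family and partner genes tested (ATF, BATF, CREB, C/EBP, Maf and Nrf genes), 2, 5 and 13 rose at 0.5, 1 and 3 h, where 2.9%, 7.12% and 25.5% of all genes were called higher. Those that fell numbered 0, 1 and 1, where 2.53%, 6.7% and 24.5% of all genes were called lower. The 2 that rose at 0.5 h encode small Maf proteins like Maff: Mafk (0.76 ± 0.18) and Mafg (0.53 ± 0.10). Cebpb rose by 1.60 ± 0.43 at 1 h and 2.22 ± 0.44 at 3 h, and Cebpd by 3.09 ± 0.57 at 3 h. Batf2, whose protein pairs with Jun proteins, rose by 3.61 ± 0.87 at 3 h. In knock-in cells at 3 h, 1 of the 20 was higher and 4 lower, where 16.6% of all genes differed, among them Batf (-2.30 ± 0.39, adjusted p = 0.00173), another Jun partner, and Jdp2 (-0.70 ± 0.10, adjusted p = 0.000735), a repressor of AP-1.

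Of 25 genes for the kinases and factors upstream of AP-1, 1, 6 and 9 rose at 0.5, 1 and 3 h, and 0, 2 and 9 fell, against the same shares of all genes (25.5% higher and 24.5% lower at 3 h). Srf, the factor that binds the CArG boxes of immediate early genes, was the one that rose at 0.5 h (0.84 ± 0.12, adjusted p = 0.0021). At 3 h Map3k8, the kinase that links IkB kinase to ERK, rose by 2.04 ± 0.50, and Map2k6, a p38 kinase activator, fell by 1.75 on the log2 scale (SE 0.18). Map3k8 was lower in knock-in cells at 0.5 h (-1.46 ± 0.28, adjusted p = 0.0381) and 1 h (-1.83 ± 0.30, adjusted p = 0.0157), and under LPS at 3 h it was higher than under IL-1b by 2.25 ± 0.48. Kinase activity was not measured.

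Of 23 tested genes with known AP-1 sites, 3, 11 and 18 rose at 0.5, 1 and 3 h and none fell, where 2.9%, 7.12% and 25.5% of all genes were called higher, and their median log2 fold change was 0.81, 1.34 and 2.04. Ptgs2, which encodes the inducible cyclooxygenase, rose by 3.14 ± 0.68 at 0.5 h. At 3 h Il6 rose by 6.88 ± 1.34, Lif by 3.90 ± 0.80 and Mmp13, a collagenase, by 3.89 ± 0.63. In knock-in cells at 3 h 5 were lower and 2 higher, where 16.6% of all genes differed in either direction: Mmp3 by -2.98 ± 0.21 (adjusted p = 1.9e-05), Mmp9 by -2.49 ± 0.17 (adjusted p = 4e-06), Mmp13 by -1.37 ± 0.29 and Hbegf by 2.40 ± 0.50 were the largest. Many of these genes have NF-kB sites too. Of 10 genes for proteins that control mRNA decay, 2, 2 and 5 rose and none fell, against the same shares of all genes. From 0.5 to 3 h, 5 of the 10 were called higher and 2 lower, where 29.5% and 28.7% of all genes were. Zfp36, which encodes the AU-rich element binding protein tristetraprolin, rose by 3.85 ± 0.55 at 0.5 h and fell by 1.75 on the log2 scale (SE 0.31) from there to 3 h.

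Across the 20 libraries, the pattern of log2 CPM most like that of each member was another early gene in several cases. Each partner is the gene with the highest r among the 14023 tested, so these values are a description. Pearson's r was 0.94 between Fos and Egr1, 0.98 between Fosb and Nr4a1, 0.92 between Jun and Arc, 0.90 between Junb and Ier3 and 0.91 between Fosl2 and Plk3. It was 0.94 between Maff and Ifrd1, 0.92 between Fosl1 and Nipal1, 0.86 between Atf3 and Dazap1 and 0.84 between Jund and Pdlim7. Within the 9, the closest pair was Fosl1 and Maff (r = 0.84), then Jun and Junb (0.83) and Fosl2 and Jund (0.79). Fos was far from Jund (-0.08) and from Fosl1 (-0.04).

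Jun overlaps the antisense gene Junos (2 to 18 counts per library), Jund overlaps the antisense gene Gm11175 (2 to 13 counts) and Atf3 overlaps Gm24748 (0 counts). The library kit keeps strand, and the strand setting of the counting is not given in the sources used here. Against at least 1151 counts of Jund, 1304 of Jun and 214 of Atf3 in each library, the overlapping genes were small.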

How the data were processed

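Poly(A) RNA of each library (1 ug of total RNA, stranded kit, 12 PCR cycles, single-end 50-base reads) was sequenced, per the labels' protocols. Per the submitters' processing notes, cutadapt 1.12, STAR, featureCounts 1.5.1, DESeq2 and build mm10 were used. The deposited values are raw read counts per gene, with the gene's exon length per the file headers. CPM, RPKM from that length, and all tests were computed here from the counts. Of 45706 gene IDs 98.8% had a symbol. The 14023 genes that reached 1 CPM in 2 or more libraries were tested with edgeR 4.0.16 (R 4.3.3; TMM factors, robust quasi-likelihood fit over all 20 libraries, Benjamini-Hochberg adjustment over all genes tested, threshold 0.05). Models held condition plus genotype (9 residual degrees of freedom), or genotype within time or within agent (6 each). Alternatives used DESeq2 1.42.0, limma-voom (limma 3.58.1), other scalings, filters and designs, and left out each library. The procedure was tested on simulated data in which libraries varied independently with a fixed spread. The simulation held no batch and no genotype difference that varied between agents, so it cannot show how the tests behave with either. The 9 genes, the gene lists and the tests were chosen with earlier results of these data known, and comparisons at 1 h between agents were added after seeing the values. All 9 genes were tested in every comparison, and values are given for those called and for some of those not called. From each other list at most 4 called genes with the largest change are named, and for each member the genes with the highest correlation. Intervals and errors cover the spread between libraries, and 3 counts are taken as the detection floor.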

Additional observations from a re-analysis of the deposited data

How the results depend on the processing

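Of 116 called member values, 300 of 2993 alternative values were no longer called and 1 reversed: Jund from 0.5 to 3 h was -0.041 without composition scaling. Of 4486 alternative values of the 181 uncalled ones, 141 had the opposite sign without a call, 107 were called in the same direction and 0 in the opposite one. With the agents as replicates of a time, the members called at 0.5, 1 and 3 h and from 0.5 to 3 h numbered 1, 1, 5 and 3. In the 0 h and TNF libraries alone, which hold fewer samples, they numbered 2 at 0.5 h, 1 at 1 h and 2 from 0.5 to 3 h. DESeq2 called 23 differences between agents (main count 12), 3 genotype differences over all pairs (1), 5 by time (3), 2 changes of the genotype difference (0) and 1 between agents (0). Limma-voom called 3 genotype differences over all pairs. Without the filter on low counts these were 0 over all pairs and 1 by time. Leaving out 1 library gave 3 to 9 members at 0.5 h, 4 to 8 at 1 h and 5 to 8 at 3 h, each lowest without the crel-/- 0 h library, and 5 to 7 from 0.5 to 3 h, lowest without the crel-/- IL-1b 3 h library. It gave 35 to 68 calls by agent against 0 h (lowest without the crel-/- 0 h library), 7 to 23 between agents (7 without the knock-in IL-1b and 23 without the crel-/- TNF library at 3 h) and 2 to 4 between agents at 1 h. It gave 0 to 2 genotype differences over all pairs, 1 to 7 by time and 0 to 2 changes of it, the last 2 highest without either IL-1b 3 h library, and 0 to 1 between agents (1 without either TNF 3 h library). The labels carry no replicate numbers, so none could serve as a block; genotypes were paired by matched condition, a term of each model except the one with agents as replicates of a time. With 2 libraries on a side, depth limits the low genes most, Fosl1 and Fosb at 0 h.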
